A study of Drosophila melanogaster with 24 samples.

Results

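Developing Drosophila genital discs were read for 9 genes that encode the main proteins of the basement membrane: vkg and Col4a1 (collagen IV), LanA, LanB1 and LanB2 (laminin), trol (perlecan), Ndg (nidogen), SPARC and Pxn (peroxidasin). They were chosen by name, with earlier results of these data known. The shares of all genes set beside their counts below are therefore a description and not a test. Every probe set that the array's annotation gives to 1 of these symbols alone was read. This gave 17 probe sets for the 9 genes out of 13647 such probe sets for 11982 genes. Of the 9 genes, 7 had 1 probe set, Pxn had 2 and trol had 8. For those 2 genes the brightest probe set, by its mean over the 24 arrays, stands for the gene, and the others are described beside it.

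The basement membrane is a sheet of extracellular matrix that underlies epithelia and wraps muscles, nerves and organs. Its collagen IV is a trimer built in flies from the products of Col4a1 and vkg, and its laminins are trimers of an alpha chain (from LanA or from wb), the beta chain of LanB1 and the gamma chain of LanB2. Nidogen binds laminin and collagen IV, perlecan is a large heparan sulphate proteoglycan of the same sheet, SPARC binds collagen, and peroxidasin crosslinks collagen IV. In fly larvae much of the collagen IV is secreted by fat body and hemocytes (blood cells) and reaches the discs through the hemolymph, so RNA in a dissected disc does not report the protein that lies on it.

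The genital disc is the larval tissue from which the genitalia and analia form. Female and male discs were dissected at L3 (wandering larvae, near the end of larval life), P6 (about 6 h after the puparium forms) and P20 (about 20 h after it), with 4 biological replicates of each of the 6 sex and stage groups and 1 Affymetrix array per replicate, 24 in all. Every group carried the genotype esgGAL4.B, UAS-GFP.nls/CyO, a driver and nuclear GFP reporter used to find the discs under the microscope, over a balancer chromosome, and no wild-type discs were compared. The number of discs in a replicate is not stated in the labels. All values below are the authors' log2 RMA values, on which 1 unit is a 2-fold step, and the level of one probe set cannot be set against that of another.

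Across the 24 arrays the medians lay between 5.04 and 5.18, and replicates of a group correlated at r = 0.964 to 0.994 over all genes. Of 10 disc epithelium genes listed as a tissue check, 8 could be read, and the imaginal genes esg (9.66 to 11.04 as group means), cad (10.11 to 11.27), en (9.31 to 10.02) and dsx (10.16 to 11.27) were among them. Of the 8, 2 were higher and 5 lower at P6 than at L3 in female discs (median -0.42) and 2 higher and 4 lower in male discs (median -0.30). Over all genes, 14.6% were higher and 21% lower in female discs (median -0.09), and 16.3% and 18.5% in male discs (median -0.04). At P20 against P6, 3 were higher and 1 lower in female and 2 higher and 1 lower in male discs. The all-gene shares were 14.2% and 12.1% in female and 13.1% and 12.6% in male discs. The part of the disc epithelium genes in the results below was not tested. The 2 L3 arrays numbered 1 stood apart: when arrays were weighted by how well they fit their group, the weights were 0.278 for the female array and 0.231 for the male array, the lowest of the 24. Comparisons with L3 are given also without this pair wherever that changed a call.

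Collagen IV showed the largest swing of the 9 genes. Both chains were high in late larval and prepupal discs and fell steeply by P20, in both sexes. The 2 genes lie next to each other on chromosome arm 2L with no gene listed between them. In bulk samples such as these, fewer cells that express a gene and less RNA per cell cannot be told apart, for this result and for all that follow.

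The vkg probe set, for the alpha 2 chain, read 10.06, 9.12, 10.12 and 9.91 in female discs and 9.89, 8.55, 10.03 and 9.06 in male discs at L3. At P6 it read 10.71, 10.88, 10.96 and 10.77 in female and 10.25, 10.56, 10.54 and 10.24 in male discs. At P20 it read 8.21, 7.75, 7.45 and 7.42 in female and 6.81, 6.93, 6.51 and 6.66 in male discs. Within each sex the P6 arrays were all above the L3 arrays, and the P20 arrays all below both. In descending order the group means were 10.83 in P6 female, 10.40 in P6 male, 9.80 in L3 female, 9.39 in L3 male, 7.71 in P20 female and 6.73 in P20 male discs, and of these neighbours only the 2 L3 groups overlapped. At P6 vkg was higher than at L3 by 1.03 ± 0.26 (SE) in female discs (2.04-fold, adjusted p = 0.00358) and by 1.01 ± 0.26 in male discs (2.02-fold, adjusted p = 0.00461), both by limma with Benjamini-Hochberg adjustment over all 11982 genes, as are all adjusted p below. By P20 it was 8.73-fold lower than at P6 in female discs (log2 difference -3.13, adjusted p = 3.03e-09) and 12.7-fold lower in male discs (-3.67, adjusted p = 2.3e-10).

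For Col4a1, the alpha 1 chain, the L3 values were 10.38, 10.41, 11.55 and 11.28 in female and 10.24, 9.96, 11.51 and 10.62 in male discs. Its P6 values were 10.90, 11.21, 11.20 and 11.23 in female and 10.63, 10.85, 10.93 and 10.86 in male discs. The P20 values were 8.76, 8.73, 7.81 and 7.97 in female and 7.80, 7.93, 7.43 and 7.63 in male discs. The 4 groups at L3 and P6 overlapped, and every P20 array was below all 16 of them. Between P6 and L3 the difference was 0.23 (95% CI -0.38 to 0.83, adjusted p = 0.594) in female and 0.24 (95% CI -0.37 to 0.84, adjusted p = 0.57) in male discs. The 95% intervals of the vkg differences, 0.49 to 1.57 in female and 0.47 to 1.55 in male discs, overlap these. The difference between the 2 genes was not tested. By P20 Col4a1 was 7.04-fold lower than at P6 in female discs (log2 difference -2.82 ± 0.29, adjusted p = 9.8e-08) and 8.69-fold lower in male discs (-3.12 ± 0.29, adjusted p = 2.12e-08). The probe set carries the suffix that Affymetrix gives to probes shared by several transcripts, as does that of LanB1, so related transcripts may add to its signal.

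Over all stages the collagen genes were lower at P20 than at L3 as well, by 4.28-fold (vkg) and 6.01-fold (Col4a1) in female discs and by 6.3-fold and 7.38-fold in male discs (adjusted p from 7.02e-08 to 1.93e-06). Group means of vkg spanned 4.10 log2 units and those of Col4a1 3.44, wider than for 97.4% and 96.3% of the 11982 genes.

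**Figure D1:**
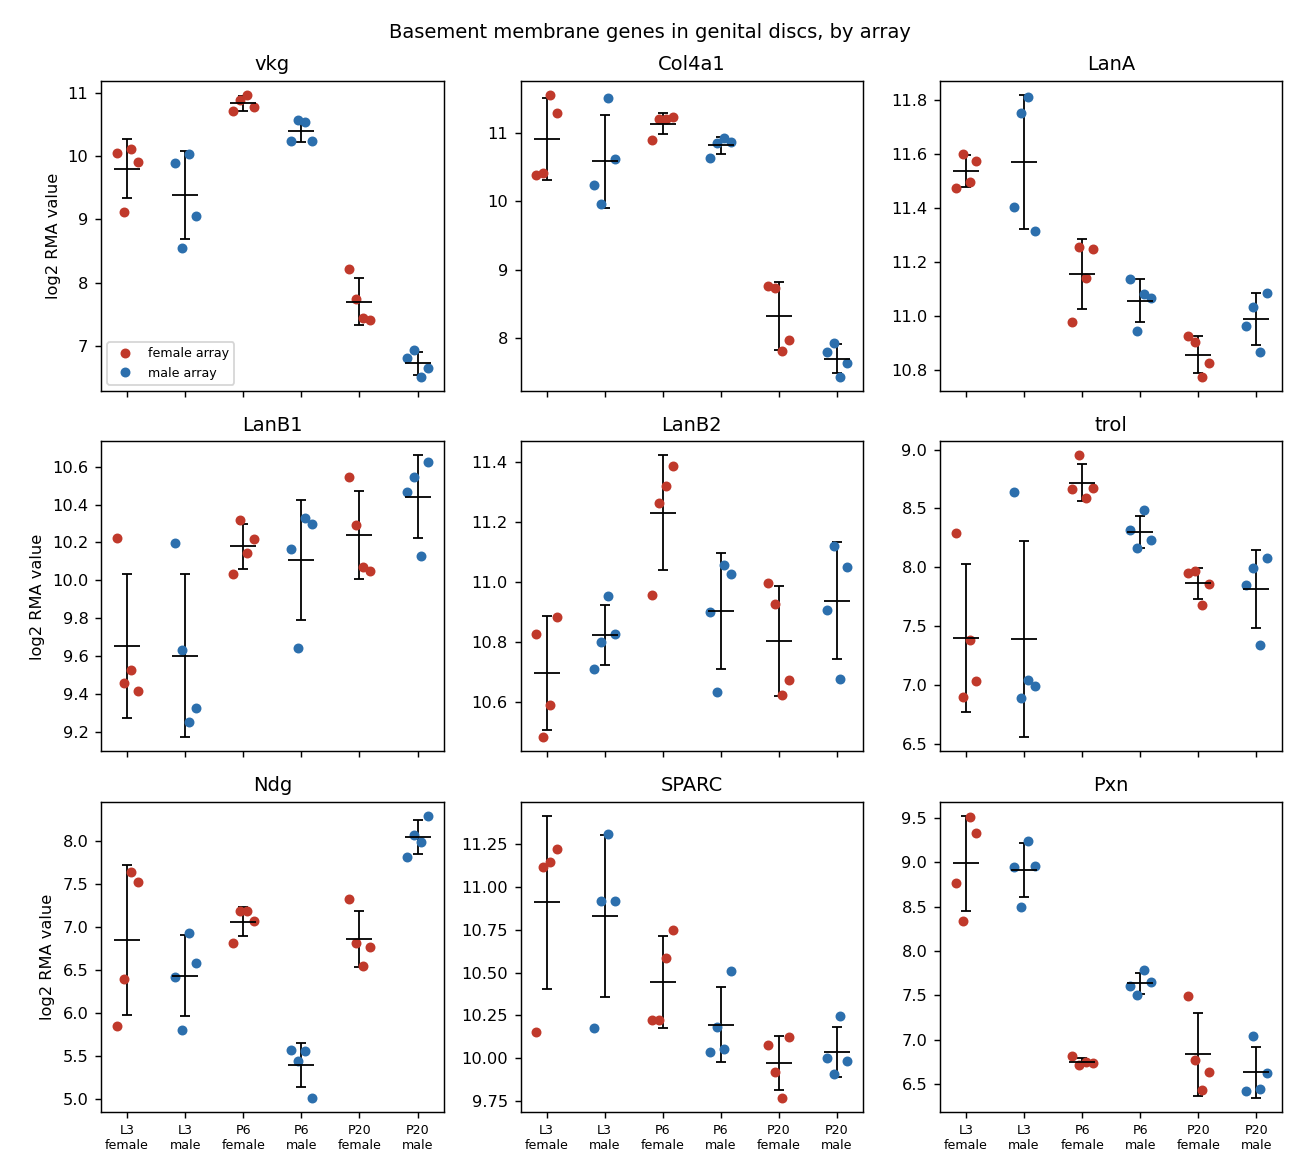
Log2 RMA values of the 9 genes on each of the 24 arrays, by sex and stage, female left of male. Points are single arrays in the order of their replicate numbers, and bars are the group mean ± SD (n = 4). The y axes differ between panels. The P20 arrays of vkg and Col4a1 lie below all L3 and P6 arrays, and the 4 P6 male arrays of Ndg lie below every other group.

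The laminin genes moved less, and not together. LanA fell between L3 and P6 in both sexes, LanB1 was higher at P20 than at L3 in both, and LanB2 rose and fell again in female discs. Their group means spanned 0.71 (LanA), 0.84 (LanB1) and 0.53 (LanB2) log2 units.

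LanA, the alpha chain of one of the 2 fly laminins, read 11.48, 11.60, 11.50 and 11.57 in female and 11.40, 11.75, 11.81 and 11.32 in male discs at L3. It read 10.98, 11.26, 11.14 and 11.25 in female and 11.14, 10.95, 11.08 and 11.07 in male discs at P6. The P20 values were 10.93, 10.90, 10.78 and 10.83 in female and 10.96, 11.04, 10.87 and 11.09 in male discs. All 8 arrays at L3 were above all 16 later ones. LanA was lower at P6 than at L3 by 1.3-fold in female (log2 difference -0.38, adjusted p = 0.00674) and 1.43-fold in male discs (-0.51, adjusted p = 0.000697). Between P20 and P6 it fell further in female discs (-0.30, adjusted p = 0.0399), and the male difference was -0.07 (95% CI -0.29 to 0.15, adjusted p = 0.69). The female call was lost with arrays centred on their medians (adjusted p = 0.321) and without any one array of the comparison other than P6 female replicate 1 (adjusted p up to 0.112).

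LanB1, the beta chain, read 10.22, 9.46, 9.52 and 9.41 in female and 10.20, 9.63, 9.25 and 9.33 in male discs at L3, with the array numbered 1 highest in both sexes. Its P6 values were 10.03, 10.32, 10.14 and 10.22 in female and 10.16, 9.65, 10.33 and 10.30 in male discs. The P20 values were 10.54, 10.29, 10.07 and 10.05 in female and 10.46, 10.54, 10.13 and 10.63 in male discs. It was higher at P20 than at L3 by 0.58 in female (adjusted p = 0.0276) and 0.84 in male discs (adjusted p = 0.00277), although the groups overlapped through the L3 arrays numbered 1. The P6 over L3 differences, 0.52 in female (adjusted p = 0.0516) and 0.51 in male discs (adjusted p = 0.0601), passed without that pair of arrays, at 0.71 in both sexes (adjusted p = 0.00121 and 0.00144).

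LanB2, the gamma chain, averaged 10.70 ± 0.19, 11.23 ± 0.19 and 10.80 ± 0.18 in female discs at L3, P6 and P20 and 10.82 ± 0.10, 10.90 ± 0.19 and 10.94 ± 0.20 in male discs (SD, n = 4 each). In female discs it was higher at P6 than at L3 by 0.53 (adjusted p = 0.00287), with no overlap, and lower at P20 than at P6 (log2 difference -0.43, adjusted p = 0.0188), with overlap. This second call was lost with median centring (adjusted p = 0.0822). In male discs the same differences were 0.08 (adjusted p = 0.672) and 0.03 (adjusted p = 0.895). The sex by stage interaction did not pass for LanB2 (adjusted p = 0.55), so the changes are not shown to differ between the sexes.

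The other laminin alpha chain gene, wb, which is not one of the 9, averaged 5.84, 7.09 and 7.96 in female discs and 7.13, 8.58 and 8.04 in male discs over L3, P6 and P20. It was lower in female than in male discs at L3 (log2 difference -1.28, adjusted p = 1.77e-06) and P6 (-1.49, adjusted p = 6.87e-08). Its P6 over L3 rise was 1.25 in female and 1.45 in male discs (adjusted p = 8.19e-08 and 8.63e-09), at the time that LanA fell.

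Nidogen gave the clearest difference between the sexes. Ndg was 3.18-fold higher in female than in male discs at P6 and 2.27-fold lower in female than in male discs at P20. It was the only one of the 9 genes to pass the test that sex differences change between stages, which 1.65% of all genes passed.

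The Ndg probe set read 5.85, 6.39, 7.63 and 7.52 in female and 6.41, 5.80, 6.93 and 6.58 in male discs at L3. At P6 the values were 6.81, 7.18, 7.18 and 7.07 in female and 5.56, 5.44, 5.55 and 5.01 in male discs. At P20 they were 7.32, 6.81, 6.55 and 6.76 in female and 7.81, 8.06, 7.99 and 8.29 in male discs. The sexes overlapped at L3, the 4 female arrays were all above the 4 male ones at P6, and all below them at P20. In descending order the group means were 8.04 in P20 male, 7.06 in P6 female, 6.86 in P20 female, 6.85 in L3 female, 6.43 in L3 male and 5.39 in P6 male discs. The first and the last of these did not overlap their neighbours, and the 4 between did.

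In male discs Ndg was 2.06-fold lower at P6 than at L3 (log2 difference -1.04 ± 0.30, adjusted p = 0.00993) and 6.28-fold higher at P20 than at P6 (2.65 ± 0.30, adjusted p = 4.39e-07). In female discs the differences were 0.21 (95% CI -0.41 to 0.84, adjusted p = 0.63) and -0.20 (95% CI -0.82 to 0.42, adjusted p = 0.712). The interaction had F = 22.7 (adjusted p = 0.000926), and adjusted p stayed between 8.6e-05 and 0.00342 when each of the 24 arrays was left out in turn. The female minus male difference was lower at P20 than at P6 (change of the log2 difference -2.85 ± 0.42, 95% CI -3.73 to -1.97, adjusted p = 0.000378), a contrast that 1.15% of all genes passed. Its changes between L3 and P6 (1.26, adjusted p = 0.269) and between L3 and P20 (-1.60, adjusted p = 0.104) did not pass. Of the marker lists read for other cell types, gonad genes also differed by sex at these stages: 5 of 11 were lower in female than in male discs at P6 and 3 at P20. Of the disc epithelium list, 2 of 8 genes were lower in female discs at each of these stages. At P6, 1 tracheal gene was higher and 1 lower, 1 myoblast and muscle gene was higher, and 1 hemocyte gene was lower. Over all genes, 1.11% were higher and 3.72% lower in female discs at P6, and 1.65% were lower at P20. The summed log2 level of a list, here and below, is the log2 of the sum of its genes' unlogged values on an array. Its brightest genes therefore weigh most. For the gonad genes it lay between 7.23 and 8.13 in P6 female and between 8.89 and 11.73 in P6 male discs. The part of the genes of these lists in the Ndg result was not tested.

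The perlecan gene trol rose between L3 and P6 in both sexes. The probe set that stands for trol read 8.29, 6.90, 7.38 and 7.03 in female and 8.64, 6.89, 7.04 and 6.99 in male discs at L3, with the array numbered 1 far above the other 3 in both sexes. The P6 values were 8.66, 8.95, 8.59 and 8.67 in female and 8.31, 8.16, 8.48 and 8.23 in male discs. The P20 values were 7.95, 7.97, 7.68 and 7.86 in female and 7.85, 7.99, 7.34 and 8.08 in male discs.

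This trol probe set was higher at P6 than at L3 by 1.32 ± 0.30 in female discs (2.49-fold, adjusted p = 0.00166), with no overlap. The male difference was 0.91 ± 0.30 (1.88-fold, adjusted p = 0.0243), with overlap through the L3 array numbered 1, and it did not pass in a fit of the 2 groups alone (adjusted p = 0.102). Between P20 and P6 the differences were -0.86 in female (adjusted p = 0.0407) and -0.48 in male discs (adjusted p = 0.271), with no overlap in either sex, and the female call was lost without any one of its 8 arrays (adjusted p up to 0.104). Against L3, trol at P20 differed by 0.46 in female and 0.42 in male discs (adjusted p = 0.247 and 0.29), and by 0.76 and 0.84 without the L3 arrays numbered 1 (adjusted p = 0.000389 and 0.000149).

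The 8 trol probe sets split by brightness. The 4 brightest, with means over all arrays of 7.91, 7.82, 7.56 and 6.00, were all higher at P6 than at L3 in both sexes, in a fit over all single-gene probe sets. Their log2 differences were 1.32, 1.64, 1.45 and 1.38 in female and 0.91, 1.72, 1.69 and 1.38 in male discs (adjusted p from 3.43e-05 to 0.0254). The 4 dimmest, with means of 4.47 to 5.10, near or below the array medians, did not pass in either sex. Probe sets 2, 3 and 4 were still above L3 at P20 in female discs, by 1.13, 1.09 and 1.26 (adjusted p = 0.0209, 0.00622 and 0.000101), and the dim probe set 8 was below it (-0.58, adjusted p = 0.0332). In male discs sets 3 and 4 were above L3 at P20, by 0.86 and 0.99 (adjusted p = 0.0285 and 0.00119). Between P20 and P6 all 8 differences were negative in both sexes, and few passed: sets 1 and 8 in female discs (-0.86 and -0.91, adjusted p = 0.0423 and 0.00227) and sets 3, 5 and 8 in male discs (-0.82, -0.43 and -0.59, adjusted p from 0.0458 to 0.0496). The bright sets 2, 3 and 4 gave -0.51, -0.36 and -0.12 in female discs and did not pass. With the mean of the 8 probe sets the male fall passed (-0.53, adjusted p = 0.0281). The annotation does not say which trol transcripts each probe set reads, and the files give no detection calls, so whether the dim ones measured trol RNA at all was not tested.

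**Figure D2:**
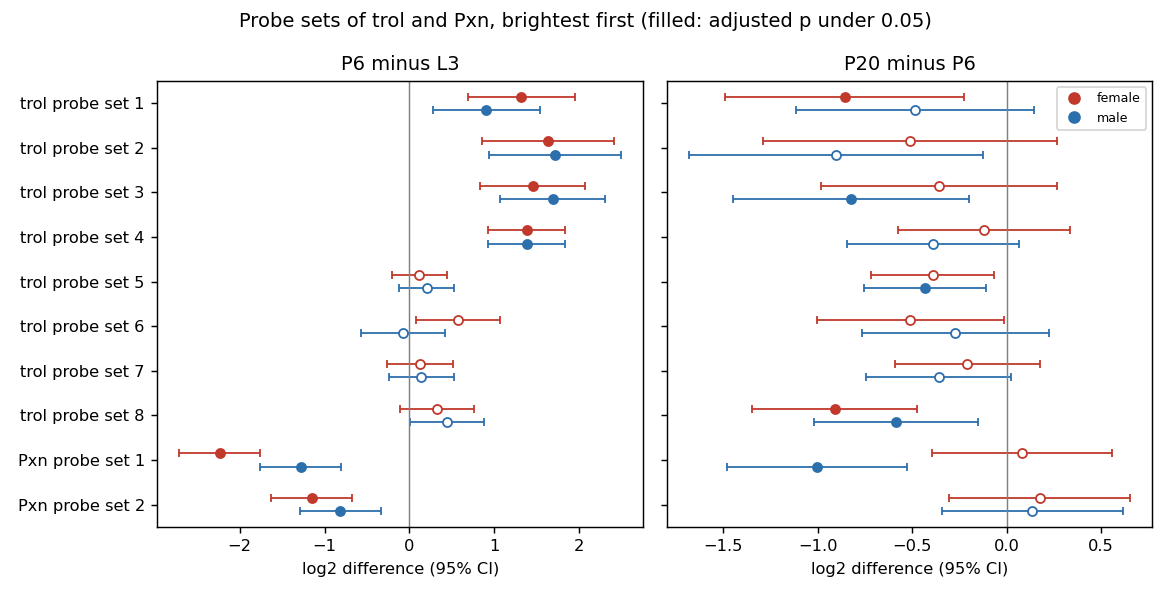
Log2 differences with 95% confidence intervals for the 8 trol and 2 Pxn probe sets, brightest first, between P6 and L3 (left) and between P20 and P6 (right). Female points lie above male points, and filled points passed at an adjusted p under 0.05. The 4 brightest trol probe sets were higher at P6 in both sexes, with differences from 0.91 to 1.72, and the 4 others did not pass there.

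SPARC, for a secreted collagen-binding protein, was lower at P20 than at L3 in both sexes. It read 10.15, 11.12, 11.15 and 11.22 in female and 10.18, 10.92, 11.31 and 10.92 in male discs at L3, the array numbered 1 being lowest in both sexes. At P6 it read 10.22, 10.22, 10.59 and 10.75 in female and 10.04, 10.18, 10.05 and 10.51 in male discs. At P20 it read 10.08, 9.92, 9.77 and 10.12 in female and 9.91 to 10.25 in male discs. At P20 against L3 it was 1.92-fold lower in female (log2 difference -0.94, adjusted p = 0.00195) and 1.74-fold lower in male discs (-0.80, adjusted p = 0.00715), and the male groups overlapped through the array numbered 1. At P6 against L3 it fell in male discs (-0.64, adjusted p = 0.0297), and the female difference was -0.46 (adjusted p = 0.113). Without the L3 arrays numbered 1 the female difference was -0.72 (adjusted p = 0.000559). The male call was lost without any one of L3 replicates 2, 3 and 4 or P6 replicates 1, 2 and 3 (adjusted p up to 0.125), and in a fit of the 2 groups alone (adjusted p = 0.0807).

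Pxn, which encodes a peroxidasin that is also made by hemocytes, fell sharply between L3 and P6. It read 8.77, 8.33, 9.51 and 9.33 in female and 8.95, 8.50, 9.24 and 8.96 in male discs at L3. Its P6 values were 6.81, 6.72, 6.75 and 6.73 in female and 7.61, 7.50, 7.79 and 7.65 in male discs. The P20 values were 7.50, 6.77, 6.43 and 6.63 in female and 6.42, 7.04, 6.44 and 6.62 in male discs. All 8 arrays at L3 were above all 16 later arrays, and the 4 P6 male arrays were above the 4 P6 female arrays.

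At P6 Pxn was 4.71-fold lower than at L3 in female discs (log2 difference -2.23 ± 0.23, adjusted p = 8.27e-08) and 2.43-fold lower in male discs (-1.28 ± 0.23, adjusted p = 0.000177). Between P20 and P6 it fell again in male discs, 2-fold (SE of the log2 difference 0.23, adjusted p = 0.00214), while the female difference was 0.08 (95% CI -0.40 to 0.56, adjusted p = 0.863). The interaction did not pass (adjusted p = 0.193). The dimmer probe set of Pxn, with a mean of 4.35, was also lower at P6 than at L3 (-1.15 in female and -0.81 in male discs, adjusted p = 0.000479 and 0.00943). It did not show the later male fall (0.14), and with the mean of the 2 probe sets that fall did not pass (-0.43, adjusted p = 0.0966).

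Markers of hemocytes moved at the same step. Of 14 listed hemocyte genes, 2 were higher and 8 lower at P6 than at L3 in female discs (median -1.36), and 2 were higher and 9 lower in male discs (median -1.60). Of all genes, 14.6% were higher and 21% lower in female discs (median -0.09), and 16.3% and 18.5% in male discs (median -0.04). Hml, for hemolectin, had group means of 8.32, 4.80 and 4.68 in female and 8.38, 4.48 and 4.15 in male discs at L3, P6 and P20, and the prophenoloxidase gene PPO2 had 11.19, 5.23 and 5.35 in female and 11.18, 5.10 and 4.99 in male discs. Against these, NimC4, a phagocytosis receptor gene, had 5.02, 9.99 and 10.89 in female and 4.90, 9.95 and 10.98 in male discs. The summed log2 level of the list was 11.58 to 12.06 in P6 female and 11.77 to 12.15 in P6 male discs, against 12.57 to 14.02 in L3 female and 12.62 to 13.90 in L3 male discs. At P6 and P20 the brightest genes in this sum were NimC4 and crq. The crq group means were 10.57 and 11.19 in female and 10.69 and 11.24 in male discs at P6 and P20. The part of hemocytes in the levels of Pxn and of the other members was not tested.

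Fat body, the other known source of collagen IV, was read through 8 of 11 listed genes. At P6 against L3, 2 were higher and 3 lower in female discs and 3 higher and 1 lower in male discs. The all-gene shares were 14.6% and 21% in female and 16.3% and 18.5% in male discs. At P20 against P6, where both collagen chains fell, 0 of the 8 passed in female discs by limma (1 at an unadjusted p under 0.05), and 1 was lower in male discs. There 14.2% of all genes were higher and 12.1% lower in female discs, and 13.1% and 12.6% in male discs. The summed log2 level of the fat body genes was 13.87 to 14.53 at P20 and 14.20 to 14.80 at P6 in female discs. In male discs it was 13.34 to 14.43 at P20 and 14.04 to 14.78 at P6. Of the 8, Yp1, Yp2 and Yp3 had group means of 3.40 to 5.06, near or below the array medians. From P6 to P20 the mean of Fbp1 went from 13.22 to 11.23 in female and from 12.85 to 10.59 in male discs. Fbp2 went from 11.34 to 10.42 and from 11.74 to 10.09, and apolpp from 12.22 to 12.10 and from 11.70 to 11.68. Lsp2 went up from 12.41 to 12.87 and from 12.14 to 12.49, and Pepck1 from 10.86 to 11.47 and from 11.03 to 11.44. Over the same step 4 hemocyte genes were higher and 1 lower in female discs and 4 higher and 2 lower in male discs, with summed levels of 12.08 to 12.51 at P20 in female and 12.13 to 12.61 in male discs. The part of these cells in the collagen fall was not tested.

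Tracheal genes also differed between stages. Of 6 readable genes of a list of 7, 5 were higher and 1 lower at P6 than at L3 in each sex. At P20 against P6 1 was higher and 3 lower in female discs and 1 higher and 4 lower in male discs. Over all genes, 14.6% were higher and 21% lower at P6 than at L3 in female discs, and 16.3% and 18.5% in male discs. At P20 against P6 the shares were 14.2% and 12.1% in female discs, and 13.1% and 12.6% in male discs. The summed log2 levels of the tracheal genes were 12.79 to 12.96, 14.24 to 14.48 and 12.31 to 12.42 at L3, P6 and P20 in female discs. In male discs they were 12.66 to 12.86, 14.10 to 14.40 and 12.26 to 12.48. The chitin deacetylase genes verm (3.82 in female and 3.81 in male discs, adjusted p = 9.47e-11 and 1.01e-10) and serp (2.16 and 2.12, adjusted p = 6.35e-09 and 9.79e-09) rose at P6. With group means of 12.43 to 12.94 at P6, verm and serp weigh heavily in the summed level. The 1 lower gene at P6 was btl, with group means of 4.77 and 3.94 in female and 6.51 and 5.10 in male discs at L3 and P6. The part of tracheal cells in the levels of vkg, Col4a1 and trol was not tested.

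**Figure D3:**
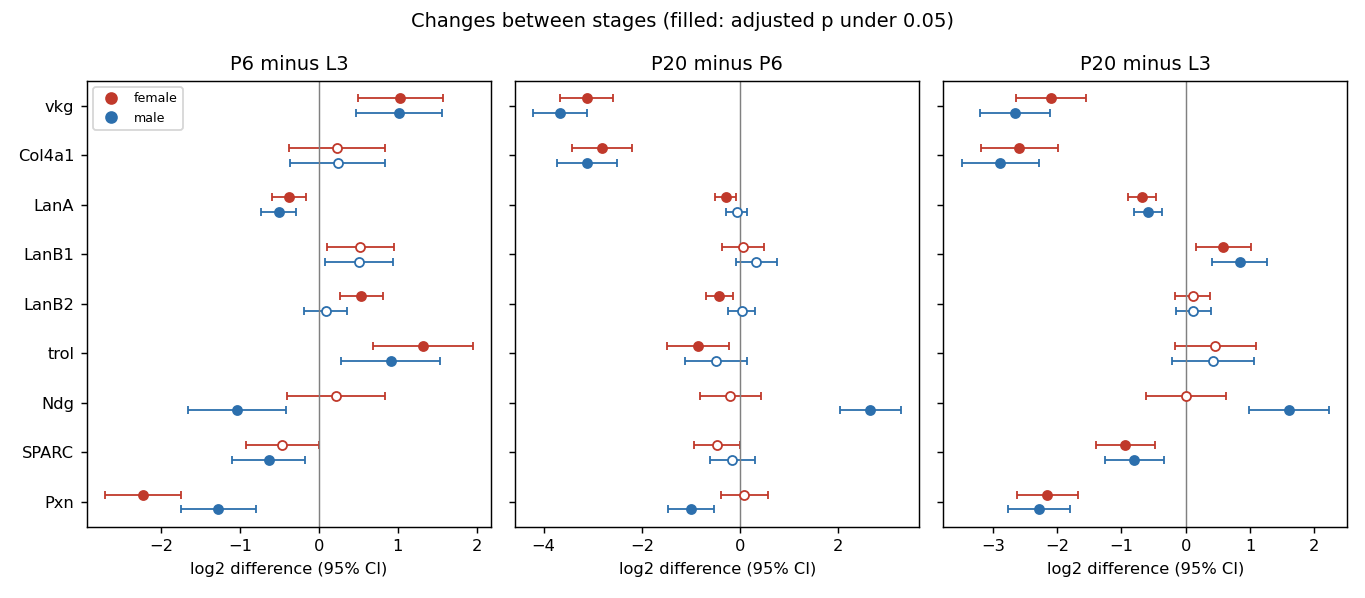
Log2 differences between stages for the 9 genes, later minus earlier, with 95% confidence intervals. Female points lie above male points, and filled points passed at an adjusted p under 0.05. The falls of vkg and Col4a1 between P6 and P20 lie between -2.82 and -3.67, and Ndg lies at -0.20 in female and 2.65 in male discs at that step.

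Between L3 and P6, 5 of the 9 genes passed in female and 6 in male discs, in both directions. In female discs 3 were higher at P6 (vkg, LanB2 and trol), against 14.6% of all genes, and 2 were lower (LanA and Pxn), against 21%. In male discs 2 were higher (vkg and trol), against 16.3%, and 4 were lower (LanA, Ndg, SPARC and Pxn), against 18.5%. The median difference of the 9 was 0.23 in female and 0.08 in male discs, and that of all genes -0.09 and -0.04. The calls shared by both sexes were vkg and trol upwards and LanA and Pxn downwards.

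Between P6 and P20 most calls were downwards. In female discs 5 of the 9 were lower at P20 (vkg, Col4a1, LanA, LanB2 and trol), against 12.1% of all genes, and 0 were higher by limma, against 14.2%. The 5 became 3 with median centring, without LanA and LanB2, and 2 to 4 with 1 array left out, where vkg and Col4a1 passed without each of the 8 arrays while trol was lost each time. The 6 members with an unadjusted p under 0.05 were these 5 and SPARC, all with negative differences. In male discs 3 were lower (vkg, Col4a1 and Pxn), against 12.6%, and 1 was higher (Ndg), against 13.1%. The median of the 9 was -0.43 in female and -0.16 in male discs, and that of all genes 0.04 and 0.01. Only vkg and Col4a1 were lower in both sexes. At P20 against L3, 5 of the 9 were lower in each sex, the same 5 in both (vkg, Col4a1, LanA, SPARC and Pxn), against 22.2% of all genes in female and 20.3% in male discs. In female discs 1 was higher (LanB1), against 17.7%, and in male discs 2 were (LanB1 and Ndg), against 17.8%. The falls were 1.6-fold and 1.5-fold for LanA and 4.45-fold and 4.86-fold for Pxn, in female and male discs in turn, and the male rise of Ndg was 3.05-fold (adjusted p = 0.000247). These comparisons share the L3 or the P20 arrays with the earlier ones and are not independent of them.

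Differences between the sexes were few. At L3, 0 of the 9 genes passed by limma, against 0.985% of all genes, and 0 had an unadjusted p under 0.05. The L3 differences lay between -0.13 (LanB2) and 0.42 (vkg and Ndg), and the 95% interval for Ndg, -0.21 to 1.04, reaches past a 2-fold difference. At P6, Ndg was higher and Pxn lower in female discs, so 2 of 9 passed against 4.83% of all genes. At P20, Ndg alone passed, against 2.35%.

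At P6 Ndg differed by 1.67 ± 0.30 (95% CI 1.05 to 2.29, adjusted p = 0.00116). Pxn differed by -0.88 ± 0.23 (95% CI -1.36 to -0.40, adjusted p = 0.025), which is 1.84-fold higher in male discs. That call was lost without any one of the 4 P6 female arrays or male replicate 3 (adjusted p up to 0.0889), and its dimmer probe set gave 0.10 (adjusted p = 0.999). Among the listed hemocyte genes at P6, gcm alone differed between the sexes (-5.49, adjusted p = 8.44e-13). It did not follow Hml and PPO2 over the stages. At L3, where those were highest, gcm averaged 2.95 in female and 2.91 in male discs, and at P6 2.94 and 8.43. The summed hemocyte level at P6 lay between 11.58 and 12.06 in female and between 11.77 and 12.15 in male discs. The vkg and trol arrays also did not overlap between the sexes at P6, with higher values in female discs (0.43 and 0.42), and did not pass (adjusted p = 0.591 and 0.731). With Ndg and Pxn this makes 4 of 9 genes with no overlap, against 10.9% of all genes. Probe sets 2 and 3 of trol had differences of the other sign, -0.17 and -0.22.

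At P20 Ndg differed by -1.18 ± 0.30 (95% CI -1.80 to -0.56, adjusted p = 0.034). The call was lost without any one of the 8 arrays but P20 female replicate 1 (adjusted p up to 0.13), and with median centring (-1.12, adjusted p = 0.0584). The vkg gene was higher in female discs by 0.97 ± 0.26 (1.96-fold, 95% CI 0.43 to 1.52), with no overlap, and did not pass (adjusted p = 0.0505). It passed with median centring (1.03, adjusted p = 0.0121) and in 6 other settings, and in none of the fits that left out 1 array. Same-numbered female and male arrays deviated together at P20 over all genes, but not consistently over the basement membrane genes alone (r = -0.35 to 0.29). With the replicate number as a block within the stage both collagen genes passed, vkg at an adjusted p of 0.000853 and Col4a1 at 0.0124. Without the block Col4a1 differed by 0.62 (95% CI 0.02 to 1.23, adjusted p = 0.52). In the interaction test vkg and Col4a1 did not pass (adjusted p = 1, rounded), so a change of this difference between stages is not shown.

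**Figure D4:**
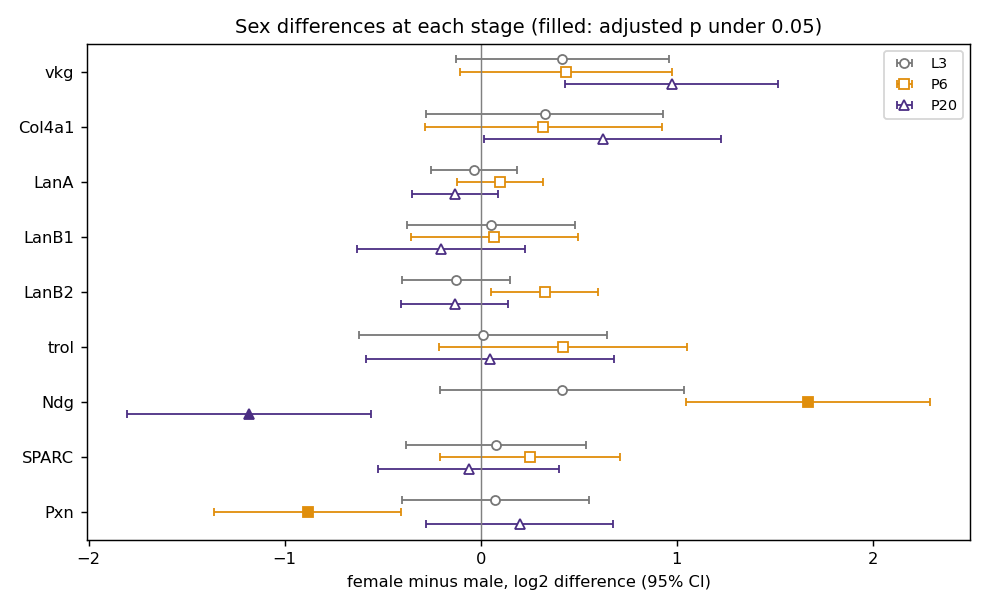
Female minus male log2 differences of the 9 genes at L3, P6 and P20, with 95% confidence intervals. Filled symbols passed at an adjusted p under 0.05. Ndg is to the right of 0 at P6 (1.67) and to the left at P20 (-1.18), and Pxn is to the left at P6 (-0.88).

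The L3 arrays varied more than the others. The median SD of the 9 genes was 0.51 in female and 0.47 in male discs at L3, 0.16 and 0.18 at P6, and 0.23 and 0.20 at P20. Over all genes the same medians were 0.247 and 0.250 at L3, 0.145 and 0.182 at P6, and 0.193 and 0.191 at P20. Same-numbered female and male L3 arrays shifted the same way from their group means for 7, 8, 7 and 7 of the 9 genes for numbers 1 to 4. Number 1 had the highest trol and LanB1 and the lowest SPARC in both sexes. Number 2 was below the mean in both sexes for 6 genes, and number 3 above it for 5.

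The marker sums shifted among these arrays too. Hemocyte sums of the arrays numbered 1 to 4 were 13.68, 12.57, 14.02 and 12.98 in female and 13.90, 12.62, 13.77 and 13.02 in male discs, with number 2 lowest in both. Fat body sums were 13.83, 12.70, 13.80 and 14.23 in female and 14.22, 12.02, 13.78 and 13.19 in male discs, again with number 2 lowest. The arrays numbered 2 had the lowest vkg and Pxn of their sex. The part of these cells in the spread among L3 arrays was not tested. Without both arrays numbered 1, the members that passed were 7 in each sex at P6 against L3, 7 in female and 8 in male discs at P20 against L3, and 0 between the sexes at L3. More genes passed overall in these fits too, 42.4% in female and 41.6% in male discs at P6 against L3, 45.3% and 43.7% at P20 against L3, and 1.09% between the sexes at L3.

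**Figure D5:**
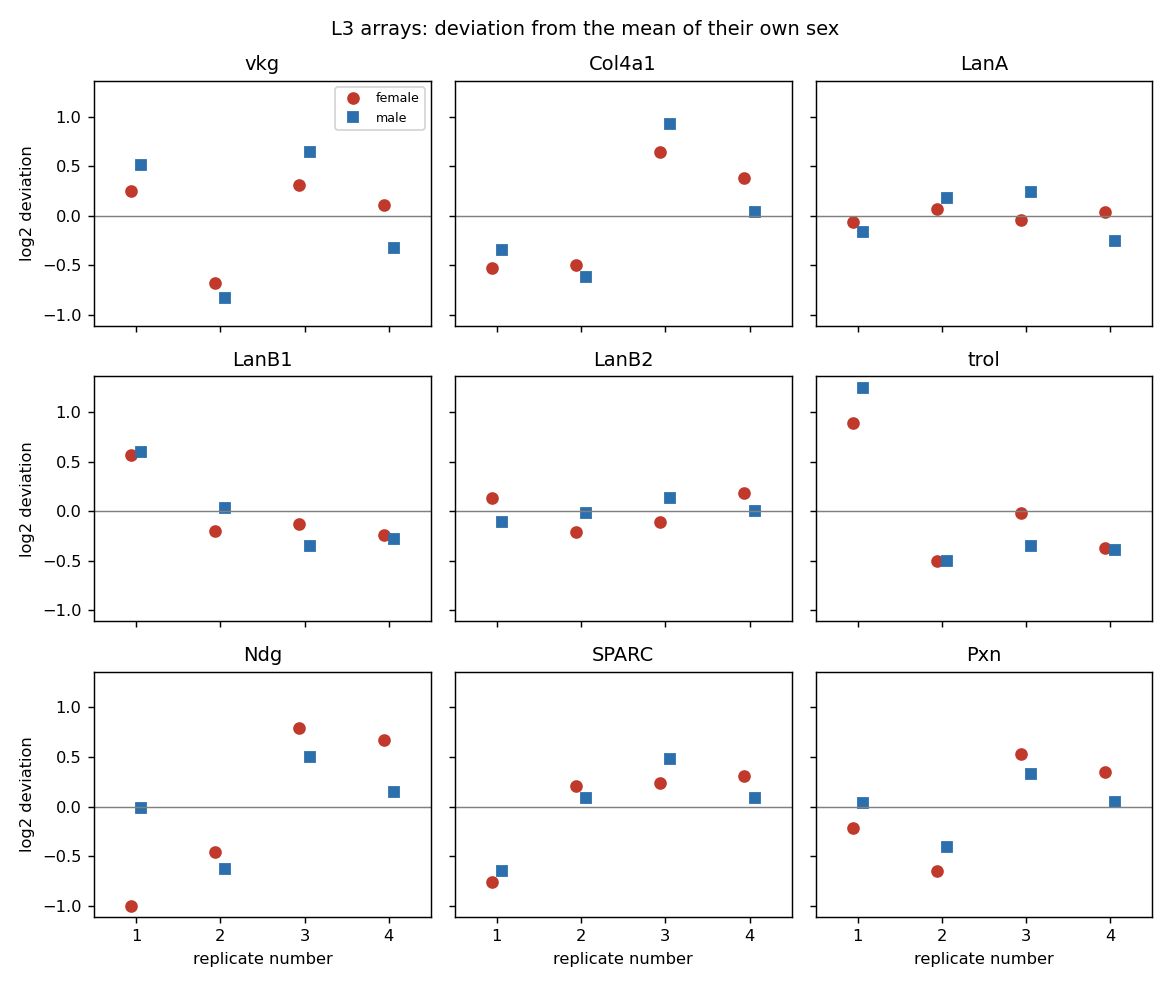
Deviation of each L3 array from the mean of its sex, in log2 units, for the 9 genes, by replicate number. Circles are female and squares male arrays. Number 1 is high for trol and LanB1 and low for SPARC in both sexes, and number 2 is low for vkg, Col4a1, Ndg and Pxn in both.

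Genes that act with the basement membrane were read from 4 lists. Of 12 genes for receptors and other surface binding partners, 6 were higher and 1 lower at P6 than at L3 in female discs and 5 higher and 1 lower in male discs. Of all genes, 14.6% were higher and 21% lower in female discs, and 16.3% and 18.5% in male discs. The medians of the 12 were 0.50 and 0.41, and those of all genes -0.09 and -0.04. At P20 against L3 the counts were 8 and 1 in female and 5 and 1 in male discs, while both collagen chains, LanA and SPARC were lower. There the all-gene shares were 17.7% and 22.2% in female and 17.8% and 20.3% in male discs. The medians were 0.55 and 0.40 for the list and -0.03 and -0.02 for all genes. Dg, for dystroglycan, a laminin and perlecan receptor, was higher at P20 than at L3 by 2.81 in female (adjusted p = 7.9e-11) and 2.46 in male discs (adjusted p = 7.67e-10). The glypican gene dlp was higher by 1.56 and 1.25 (adjusted p = 2.68e-08 and 7.59e-07). Ddr, for a receptor kinase related to the collagen receptors of mammals, was higher by 1.13 and 0.64 (adjusted p = 6.95e-06 and 0.00273). The beta integrin gene Itgbn was lower (log2 differences -2.17 and -1.54, adjusted p = 1.73e-05 and 0.000752). Ddr was the only one of the 12 to differ by sex at P20 (0.72 higher in female discs, adjusted p = 0.00855), against 2.35% of all genes.

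Of 12 genes for matrix secretion and collagen processing, 10 could be read. At P20 against L3, 3 were higher and 1 lower in female discs and 5 higher and 1 lower in male discs. The shares of all genes were 17.7% higher and 22.2% lower in female discs, and 17.8% and 20.3% in male discs. At P20 against P6, where the collagen genes fell, 1 was higher and 1 lower in female discs and 2 were higher in male discs. These counts are close to the all-gene shares at this step, 14.2% higher and 12.1% lower in female and 13.1% and 12.6% in male discs. PH4alphaEFB, for the prolyl 4-hydroxylase that modifies collagen, was higher by 0.87 and 0.79 (adjusted p = 0.000359 and 0.00102), and Plod, for the lysyl hydroxylase, was higher in male discs (0.46, adjusted p = 0.0111). The cargo receptor gene loj, a p24 family member, was higher at P6 than at L3 (1.30 and 1.24, adjusted p = 4.47e-05 and 0.000104). Tango1, for a protein needed to secrete collagen, was lower at P20 than at L3 (-0.77 and -0.87, adjusted p = 0.029 and 0.015).

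Among 9 readable genes for proteases, inhibitors and crosslinking enzymes, 3 were higher and 3 lower at P6 than at L3 in female discs and 2 higher and 2 lower in male discs. At this step 14.6% of all genes were higher and 21% lower in female discs, and 16.3% and 18.5% in male discs. The matrix metalloproteinase gene Mmp2 rose at this step (1.41 and 1.40, adjusted p = 0.000441 and 0.000568). Its L3 group means, 4.15 in female and 4.38 in male discs, were below the array medians, and those at P6 were 5.56 and 5.78. The secreted protease gene AdamTS-A was lower at P6 than at L3 (-1.77 and -2.36, adjusted p = 1.01e-07 and 1.03e-09) and higher at P20 than at P6 (1.57 and 2.67, adjusted p = 6.9e-07 and 1.3e-10). At P20 3 of the 9 were lower in female than in male discs, against 1.65% of all genes. They were the metalloproteinase inhibitor gene Timp at -1.15 (adjusted p = 0.00116), the heparan sulphate sulfatase gene Sulf1 at -0.60 (adjusted p = 0.00648) and AdamTS-A at -0.75 (adjusted p = 0.0262).

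Of 13 readable genes for other matrix proteins, 6 were higher and 2 lower at P20 than at P6 in female discs and 4 higher and 2 lower in male discs. The all-gene shares were 14.2% higher and 12.1% lower in female discs, and 13.1% and 12.6% in male discs. Ppn, for papilin, was lower at P6 than at L3 (-1.33 and -0.67, adjusted p = 4.08e-07 and 0.00164) and higher at P20 than at P6 (1.97 and 1.23, adjusted p = 8.34e-10 and 1.64e-06). Mp, for the collagen XV and XVIII type protein Multiplexin, was higher at P20 than at P6 (1.19 and 0.84, adjusted p = 0.000717 and 0.0128), the step at which both collagen IV genes fell. Tig, for tiggrin, an integrin ligand, was lower (-1.77 and -1.75, adjusted p = 0.00217 and 0.00252). The thrombospondin gene Tsp was higher in female than in male discs at L3 (0.67, adjusted p = 0.00924) and P6 (1.66, adjusted p = 2.48e-08).

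For each of the 9 genes, all other genes were ranked by the root mean square difference of their 6 centred group means, a description with no test. The means were not scaled, so the distances depend on how far a gene moves. Group means of Ndg spanned 2.65 log2 units and those of the laminin genes 0.53 to 0.84. For vkg, Col4a1 ranked 2 of 11981 genes (0.34 log2 units), after Nep2 (0.11) and before frm (0.37). For Col4a1, vkg ranked 5, and the nearest were Dbct, Hexo2 and Tep3 (0.25 to 0.32). The nearest gene to Ndg was CG10702 at 0.36. Pxn was nearest to Naglu (0.11), and the nearest genes of the laminin genes, trol and SPARC lay at 0.04 to 0.06. SPARC ranked 290 for LanA, and LanA 89 for SPARC. Apart from the collagen pair, no other 2 of the 9 genes, the 3 laminin genes included, ranked as near as these.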

How the data were processed

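Total RNA of 24 dissected genital disc samples (20 ng each) was labelled and hybridised to Affymetrix arrays, per the labels' protocols. The deposited values are log2 expression values per probe set that the authors made with RMA, per the submitters' processing notes. The version and settings of RMA and the genome build are not given in the sources used here, so no coordinates are printed, and no detection calls or background levels were used. Precision is limited by the 4 arrays per group.

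The table held 18952 probe sets: 183 controls, 13647 with 1 gene in the platform annotation, 402 with several and 4720 with none. The single-gene sets were used, and 13544 of them matched a Release 6 gene table by gene ID. The probe set with the highest mean stood for a gene, which left 11982 genes, with no filter on low values.

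Tests used limma 3.58.1 in R 4.3.3 (lmFit and eBayes, 1 mean per group, all 24 arrays, 18 residual degrees of freedom), two-sided, with Benjamini-Hochberg adjustment over all genes and a threshold of 0.05. The interaction was a moderated F test. The procedure was also run on simulated data with independent noise on every array. Such data lack the shifts that same-numbered arrays share here, so that run cannot show how those shifts affect the calls. The text names all 9 genes and their probe sets, up to 4 genes of a list in a comparison by smallest adjusted p, and nearest genes of vkg, Col4a1, Ndg and Pxn. Mp, Hml, PPO2 and crq fall outside this rule and were picked after their values were seen. The 8 readable fat body genes are all named, also after their values were seen. The members and lists were chosen with earlier results of these data known.

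Replicate numbers were checked as pairs of female and male arrays. Deviations of same-numbered arrays correlated over all genes at 0.07 to 0.68 at L3, 0.03 to 0.28 at P6 and 0.11 to 0.42 at P20. Only P20 passed the rule that every pair exceed 0.1, so blocked values stand beside the P20 sex differences of vkg and Col4a1. Over the basement membrane genes alone the correlations were 0.75 to 0.89 at L3, -0.44 to 0.70 at P6 and -0.35 to 0.29 at P20. The rule therefore did not follow the pairing of these genes. Their L3 sex differences and intervals are given without the block, and with it 0 of them passed at L3. Ndg kept its P20 call with the block. Nothing in the labels says what a number marks.

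Alternatives were median centring of arrays, a trended and robust fit, dropping dim genes, averaging all probe sets of a gene, testing every probe set, fitting only the groups compared, array weights, replicate blocks and leaving out each array. Leaving out both L3 arrays numbered 1 was added after seeing the data.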

Additional observations from a re-analysis of the deposited data

Results flagged for a closer look

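Some groups held 1 array far from the other 3, by the gap between it and its nearest neighbour as a share of the group's range. This was so in 7 of the 102 groups of 4 values (17 probe sets in 6 groups), and chance gives about 1 in 20. At L3, the female array numbered 1 read 10.22 for LanB1, with the others at 9.41 to 9.52, and 10.15 for SPARC, with the others at 11.12 to 11.22. The male L3 array numbered 1 read 8.64 for the brightest trol probe set, with the others at 6.89 to 7.04, and 7.93 for its probe set 3, with the others at 6.22 to 6.39. At P6, female replicate 1 read 10.90 for Col4a1, with the others at 11.20 to 11.23, and 8.12 for the second trol probe set, with the others at 8.63 to 8.72. Female replicate 4 at P6 read 4.31 for the dimmer Pxn probe set, with the others at 3.88 to 3.95. The sex difference of Ndg changed between stages by the interaction test (limma, adjusted p = 0.000926).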

How the results depend on the processing

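Of 801 values for single members under settings other than leaving out 1 array, 766 kept their side of the threshold, 8 lost a call and 27 gained one. Of 864 with 1 array left out, the numbers were 812, 46 and 6. Of the 766 and the 812, 6 and 29 had no call and changed sign, and no called value did. The count of members that passed between P20 and P6 in female discs was 3 with median centring (25.6% of all genes passed there), and 2 to 4 with 1 array left out (21.9 to 26.7%). For the sexes at P6 it was 1 with the mean of probe sets, where Pxn did not pass (-0.39, adjusted p = 0.38), and 1 to 2 with 1 array left out (3.24 to 6% of all genes). At P20 it was 2, with vkg added, under the trended fit, without dim genes, with only the groups compared, with array weights and with the replicate block over all arrays, 3 with the replicate block within stage, and 0 to 1 with 1 array left out (1.91 to 2.19% of all genes). With median centring it was also 1, with vkg in the place of Ndg. For the interaction it was 2 with array weights, where Pxn also passed (adjusted p = 0.0441) and 2.61% of all genes did. In fits of the 2 groups alone, SPARC passed between P20 and P6 in female discs (adjusted p = 0.0304) and LanB1 did not between P20 and L3 in female discs (adjusted p = 0.0523), a call also lost without L3 female replicates 2, 3 or 4 or P20 female replicates 1 or 2 (adjusted p up to 0.0954). LanB2 between P20 and P6 in female discs was lost without replicates 3 or 4 of either stage (adjusted p up to 0.0691), and trol between P6 and L3 in male discs without L3 replicates 2, 3 or 4 or P6 replicate 3 (adjusted p up to 0.0845). With the replicate block within stage, 415 genes (3.46%) passed between the sexes at P20, against 282 without it. The causes were not tested. The files give no signal over background, so a limit of detection cannot be set for the dim probe sets.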

Other observations

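Of 9 readable myoblast and muscle genes of a list of 13, 6 were higher and 1 lower at P20 than at L3 in each sex. The all-gene shares were 17.7% higher and 22.2% lower in female discs, and 17.8% and 20.3% in male discs. The myoblast gene Him was higher by 3.82 log2 units in female and 3.55 in male discs (limma, adjusted p = 8.34e-10 and 2.75e-09), and the myoblast fusion gene sns by 2.19 and 2.63 (adjusted p = 8.36e-09 and 4.9e-10). The muscle gene Mlc1 was lower (log2 differences -4.08 and -4.23, adjusted p = 0.000233 and 0.000182). Between P20 and P6, when both collagen IV genes fell, 3 of the 9 were higher and 1 lower in female discs and 3 higher and 0 lower in male discs. At that step 14.2% of all genes were higher and 12.1% lower in female discs, and 13.1% and 12.6% in male discs.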
